A study of Saccharomyces cerevisiae with 4 samples.

Results

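The 31 genes described here belong to the general stress response of budding yeast (Saccharomyces cerevisiae). They were chosen by name, as stress genes outside the trehalose, glycogen, glycerol, pentose phosphate and chaperone families, with earlier results of these data known. The gene lists set beside them were chosen in the same way. Counts of listed genes beside all genes are therefore descriptions and no independent test. Each was found through the open reading frame (ORF) given for a probe set in the deposited files, and all 31 were measured, out of 5504 protein-coding genes in all. DDR2 was listed under an older ORF name, which the RefSeq gene table pairs with it. The study put polyadenylated RNA on 4 Affymetrix YG-S98 arrays. The arrays came from cells that overexpressed KIN28, the kinase subunit of general transcription factor TFIIH, and from cells that overexpressed POG1, a nuclear factor linked to recovery from pheromone arrest. Each was sampled during exponential growth at 25 °C in synthetic medium with 2% glucose, once before (0 min) and once 60 min into 200 mM lithium chloride (LiCl). The series title names rsp5 mutants, whose stress sensitivity overexpression of either gene counters. RSP5 encodes a ubiquitin ligase, and the labels give no RSP5 genotype for any array.

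The arrays of 1 overexpressed gene are called a culture below (KIN28 cells or POG1 cells), although the labels do not say that both times came from the same flask. There was 1 array per culture and time, so a difference between 2 arrays has no replicate check. The media lacked leucine, uracil or both, and the labels do not tie a medium to a culture. Arrays of cells with an empty vector, or of cells kept for 60 min without lithium, were not analysed here, so the change over 60 min combines lithium with time in culture.

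Msn2 and Msn4 are related zinc-finger transcription factors that bind the stress response element in the promoters of many yeast genes. In unstressed cells protein kinase A activity keeps them largely in the cytoplasm. Under heat, osmotic, oxidative or ion stress they enter the nucleus and raise a common set of genes, whose products protect membranes, remove peroxides and reactive aldehydes, remodel the cell wall and adjust metabolism.

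The signal of each probe set was divided by the median of its array, so a signal of 1 is that of the median probe set. Dimmer signals than the 20th percentile of their array were raised to that level, the floor, which was 0.21 to 0.224. Of the 31 genes, 26 lay above it on all 4 arrays and 5 (GRE1, SIP18, HBT1, FMP45 and XBP1) were at the floor on 1 array or more. For these "at least" marks a fold against the floor. Negative control probe sets reached up to 0.568 (95th percentile) on an array, and genes near that level are less certain. KIN28 and POG1 were each high in the culture labelled for them, with KIN28 62.1-fold and 74.4-fold higher in its own culture at 0 and 60 min and POG1 266-fold and at least 335-fold higher in its own. Some control signals moved with time. A 25S ribosomal RNA control went from 91.9 to 0.882 in the KIN28 culture and from 73.2 to 0.642 in the POG1 culture, and the 3' to 5' ratio of SRB4, a measure of RNA integrity, was 7.5 on the KIN28 array at 0 min against 3.7 to 4.65 on the others. The same ratio was 1.92 there against 1.31 to 1.73 for ACT1, and 2.79 against 2.34 to 3.83 for SPT15. A further 25S control went from 53.9 to 31 in KIN28 cells and from 27.8 to 6.63 in POG1 cells. Their part in the results below was not tested. In bulk RNA a change in all cells and a change in some of them cannot be told apart.

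The first question was how the general stress genes changed over 60 min in lithium. Nearly all were higher, and the median of their log2 changes was 2.35 in KIN28 cells and 2.61 in POG1 cells, against 0.02 and -0.07 over all genes tested. In the KIN28 culture 25 of 31 were at least 2-fold higher and 0 lower, where 12.2% of all genes tested were at least 2-fold higher. In the POG1 culture 27 of 31 were higher and 0 lower, against 11.3% of all genes. These shares describe a list chosen with earlier results of these data known. In both cultures 24 were higher, in 1 culture 4 (HOR7, MGA1 and XBP1 in the POG1 culture and MSN4 in the KIN28 culture), and in neither 3 (ALD4, MSN2 and TMA10). XBP1 and MSN4 sat beside the threshold, at 1.98-fold in the KIN28 culture and 1.97-fold in the POG1 culture.

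The change common to both cultures was tested with limma, with the culture as a block and p-values adjusted over all 5381 genes. The fit leaves 1 residual degree of freedom per gene, which is the disagreement of the 2 cultures. The limma fit pools this spread over genes (prior degrees of freedom 5.59), so a gene's own disagreement sets only part of its p-value. The p-values therefore rest on the spread between these cultures and not between replicates of one. By this test 26 of the 31 genes rose and 0 fell, where 7.62% of all genes rose and 9.42% fell. The 5 that did not pass were ALD4, MSN2, TMA10, HOR7 and MGA1. The median fitted log2 change was 2.62 over the 31 genes and -0.01 over all genes. Without a floor on dim signals no gene passed, with adjusted p between 0.08 and 0.135 for the 26 genes. At an unadjusted p under 0.05 that fit held 26 of the 31 genes and 1485 of all genes. Restricted to genes above the floor on every array, the fit held 26 of the 31 genes and called 21. Those it did not call were again ALD4, MSN2, TMA10, HOR7 and MGA1.

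**Figure D1:**
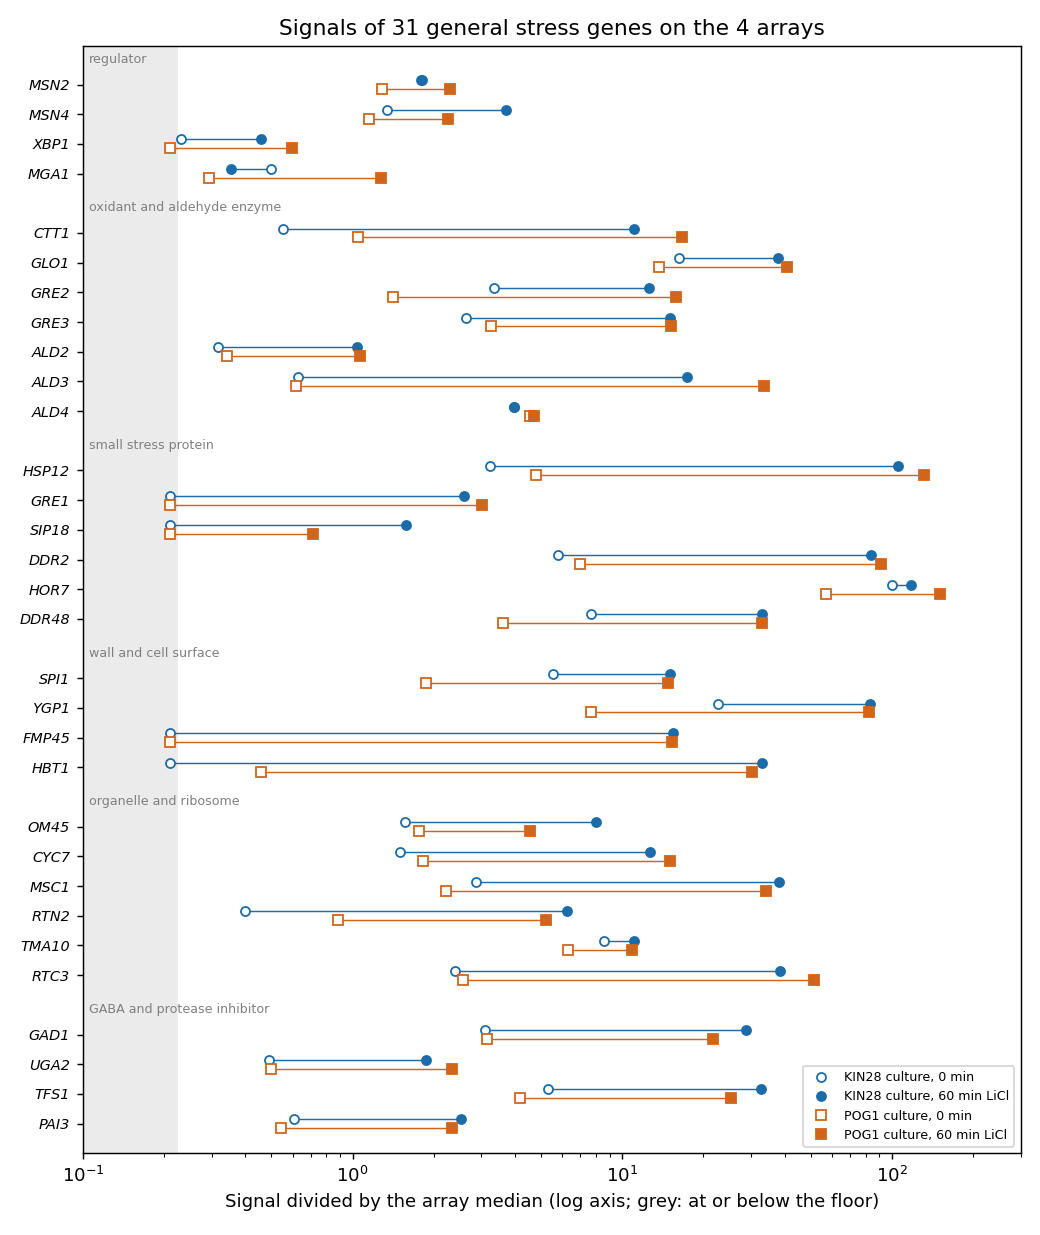
Signal of each of the 31 genes on the 4 arrays, divided by the array median (log axis), grouped by role; open symbols are 0 min, filled symbols 60 min in LiCl, blue circles the KIN28 culture and orange squares the POG1 culture, and lines join the 2 times of a culture. The filled symbols lie to the right of the open ones except for MGA1 in the KIN28 culture; ALD4 and, in the KIN28 culture, MSN2 differ little.

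Among the regulators, the genes of the paired factors differed in their values. MSN4 gave a signal of 1.34 at 0 min and 3.72 at 60 min in KIN28 cells, and of 1.15 and 2.26 in POG1 cells. Both 60 min arrays lay above both 0 min arrays, and the gene rose (limma log2 change 1.23 ± 0.29 SE, adjusted p = 0.0336), a call that was lost without scaling (0.159). MSN2 gave 1.79 and 1.81 in KIN28 cells and 1.29 and 2.3 in POG1 cells. Its change of 0.42 ± 0.32 did not pass (limma, adjusted p = 0.392), and the difference between MSN2 and MSN4 was not tested. XBP1, which encodes a stress-induced repressor of cell cycle genes, gave 0.231 and 0.456 in the KIN28 culture, and rose from the floor to 0.596 in the POG1 culture (limma, adjusted p = 0.033). Without scaling (0.153), with quantile normalization (0.0544) or with an intensity trend (0.053) it did not pass. All of these XBP1 signals were near the level of the negative controls. With the floor at that level its log2 change was 0.04 (adjusted p = 0.941). MGA1 encodes a protein similar to heat shock factor. Its signal went from 0.5 to 0.353 in the KIN28 culture and from 0.293 to 1.28 in the POG1 culture. That is 1.42-fold lower in KIN28 cells and 4.38-fold higher in POG1 cells, the latter at least 2.26-fold with the floor at the negative controls. Its log2 change in KIN28 cells was -0.50, -0.13 without scaling and 0.01 with the floor at the 40th percentile, where that in POG1 cells was 0.98. The fit did not call it (limma, adjusted p = 0.371).

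Enzymes that remove peroxides and reactive carbonyls were mostly higher by large factors. CTT1, the cytosolic catalase gene, went from 0.552 to 11.1 in the KIN28 culture and from 1.05 to 16.7 in the POG1 culture, 20-fold and 15.9-fold (limma log2 change 4.16 ± 0.28, adjusted p = 0.00153). GRE3, an aldose reductase gene, went from 2.64 to 15.1 and from 3.27 to 15.2, so that the cultures ended at nearly the same signal. GRE2 encodes a reductase of methylglyoxal, a toxic by-product of glycolysis, and GLO1 encodes glyoxalase I, which acts on the same compound. GRE2 went from 3.34 to 12.6 in KIN28 cells and from 1.41 to 15.9 in POG1 cells, 3.78-fold and 11.2-fold. Both reductase genes rose (limma, adjusted p = 0.00544 for GRE3 and 0.00914 for GRE2). GLO1 had a smaller change, from 16.3 to 37.9 and from 13.7 to 41, and rose by the test (limma log2 change 1.40 ± 0.28, adjusted p = 0.0215), though not without scaling (0.0892).

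The aldehyde dehydrogenase genes differed widely in their values. ALD3, a cytosolic form, went from 0.63 to 17.4 in the KIN28 culture and from 0.618 to 33.7 in the POG1 culture, 27.5-fold and 54.6-fold. Its neighbour and close copy ALD2 went from 0.316 to 1.04 and from 0.341 to 1.07, 3.28-fold and 3.14-fold. Both 0 min signals of ALD2 lay below the negative controls, against which its folds were at least 2.28 and 1.89. Both genes passed the test (limma, adjusted p = 0.00153 for ALD3 and 0.0108 for ALD2), ALD2 no longer with a floor at the 40th percentile (0.0577). A further ALD3 probe set, which the platform annotation assigns to both copies and which was not used in the fit, was 13.9-fold and 18.2-fold higher. ALD4, which encodes the mitochondrial form, gave 3.97 at both times in KIN28 cells and 4.56 and 4.73 in POG1 cells. Its fitted log2 change was 0.03 ± 0.27 (limma, adjusted p = 0.961), and without scaling it was 0.38 in the KIN28 culture and -0.28 in the POG1 culture.

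Of 6 small stress protein genes 5 rose. HSP12, which encodes a small protein that stabilises membranes, went from 3.24 to 105 in the KIN28 culture and from 4.81 to 132 in the POG1 culture, 32.3-fold and 27.5-fold (limma log2 change 4.90 ± 0.28, adjusted p = 0.001). DDR2, a small multistress protein gene, went from 5.8 to 83.7 and from 6.95 to 91.2, 14.4-fold and 13.1-fold (limma, adjusted p = 0.00153). Its paralog HOR7 already gave 100 and 56.8 at 0 min and reached 118 and 151, which is 1.18-fold and 2.66-fold. HOR7 did not pass the test (limma, adjusted p = 0.16), though with an intensity trend in the fit it did (0.0476). DDR48, an asparagine- and glycine-rich DNA damage-responsive gene, went from 7.65 to 32.9 and from 3.63 to 33, 4.29-fold and 9.08-fold, and rose (limma, adjusted p = 0.00629). Its probe set may detect related sequences, and a set on an overlapping ORF, which the platform annotation assigns to DDR48, was 1.59-fold and 3.37-fold higher. Under that naming DDR48 did not pass (adjusted p = 0.0662).

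GRE1 and SIP18 encode paralogous hydrophilins, hydrophilic proteins linked to drying and osmotic stress. Both lay at the floor in both cultures at 0 min. GRE1 reached 2.58 in the KIN28 culture and 3.01 in the POG1 culture, at least 12.3-fold and 14.3-fold. SIP18 reached 1.58 and 0.713, at least 7.53-fold and 3.38-fold. Against the negative controls the bounds are 5.66-fold and 5.31-fold for GRE1 and 3.48-fold and 1.26-fold for SIP18. Both genes rose (limma, adjusted p = 0.00153 for GRE1 and 0.00914 for SIP18), SIP18 no longer with a floor at the 40th percentile (0.117). The floor at 0 min enters the spread between the cultures in both tests. GRE1 had log2 responses of 3.62 and 3.84 with the floor and 3.69 and 4.43 without it. For SIP18 they were 2.91 and 1.76 with it and 3.20 and 2.34 without.

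Genes of the wall and cell surface included HBT1 and FMP45, with fitted log2 changes of 6.67 and 6.18. That of FMP45 was 4.91 with the floor at the negative controls and 4.55 with the floor at the 40th percentile, below ALD3 at 5.28 and 5.21. HBT1, which encodes a protein of polarised cell morphogenesis, lay at the floor at 0 min in the KIN28 culture and at 0.458 in the POG1 culture, and gave 33 and 30.3 at 60 min. That is at least 157-fold in KIN28 cells and 66.2-fold in POG1 cells, or at least 72.3-fold and 53.4-fold against the negative controls (limma, adjusted p = 0.001). FMP45, which encodes a membrane protein of the Sur7 family, went from the floor to 15.4 and 15.3, at least 73-fold and 72.3-fold, or 33.7-fold and 26.9-fold against the negative controls (limma, adjusted p = 0.000456). Both of its 0 min signals were raised to nearly equal floors, which gave log2 responses of 6.19 and 6.18. Without a floor these were 8.05 and 6.49, so the floor narrowed the gene's own spread in this test. SPI1, a cell wall protein gene, went from 5.56 to 15.1 in the KIN28 culture and from 1.88 to 14.8 in the POG1 culture. YGP1, which encodes a secreted glycoprotein, went from 22.6 to 83.3 and from 7.69 to 82.5. For SPI1 and YGP1 the cultures thus differed at 0 min and were alike at 60 min, and both genes rose (limma, adjusted p = 0.0157 and 0.00919).

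Genes of mitochondria, the endoplasmic reticulum and the ribosome were less uniform. CYC7, which encodes the second isoform of cytochrome c, went from 1.5 to 12.7 in the KIN28 culture and from 1.83 to 15.1 in the POG1 culture, 8.46-fold and 8.26-fold (limma log2 change 3.06 ± 0.27, adjusted p = 0.00253). OM45, a mitochondrial outer membrane protein gene, went from 1.57 to 8.01 and from 1.77 to 4.57, 5.1-fold and 2.59-fold. RTN2, a reticulon that shapes the endoplasmic reticulum, went from 0.398 to 6.24 and from 0.882 to 5.2. RTN2 was thus 15.7-fold and 5.9-fold higher. Its KIN28 signal at 0 min lay below the negative controls, against which the fold was at least 13.7. MSC1 went from 2.88 to 38.1 and from 2.22 to 34.1, 13.2-fold and 15.4-fold. RTC3 went from 2.39 to 38.6 and from 2.56 to 51.3, 16.1-fold and 20-fold. All of these genes rose (limma, adjusted p between 0.00153 and 0.0145). TMA10, which encodes a ribosome-associated protein, gave 8.59 and 11.1 in KIN28 cells and 6.31 and 10.9 in POG1 cells, and did not pass (limma, adjusted p = 0.208).

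The last group covers 4-aminobutyrate metabolism and protease inhibitors. GAD1, which encodes glutamate decarboxylase, went from 3.1 to 28.7 in the KIN28 culture and from 3.15 to 21.7 in the POG1 culture, 9.25-fold and 6.87-fold. UGA2, which encodes succinate semialdehyde dehydrogenase of the same pathway, went from 0.49 to 1.87 and from 0.499 to 2.33, 3.83-fold and 4.68-fold. An unused probe set of UGA2 that can detect related sequences was 7.2-fold and 3.95-fold higher. TFS1, an inhibitor of carboxypeptidase Y, went from 5.3 to 32.7 and from 4.17 to 25.4, 6.16-fold and 6.1-fold. PAI3, an inhibitor of the vacuolar proteinase Pep4, went from 0.606 to 2.53 and from 0.542 to 2.33, 4.17-fold and 4.29-fold. The POG1 signals of UGA2 and PAI3 at 0 min lay below the negative controls, against which these folds were at least 4.11 and 4.1. All 4 genes rose (limma, adjusted p = 0.00301 for GAD1, 0.00664 for UGA2, 0.00397 for TFS1 and 0.0063 for PAI3).

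**Figure D2:**
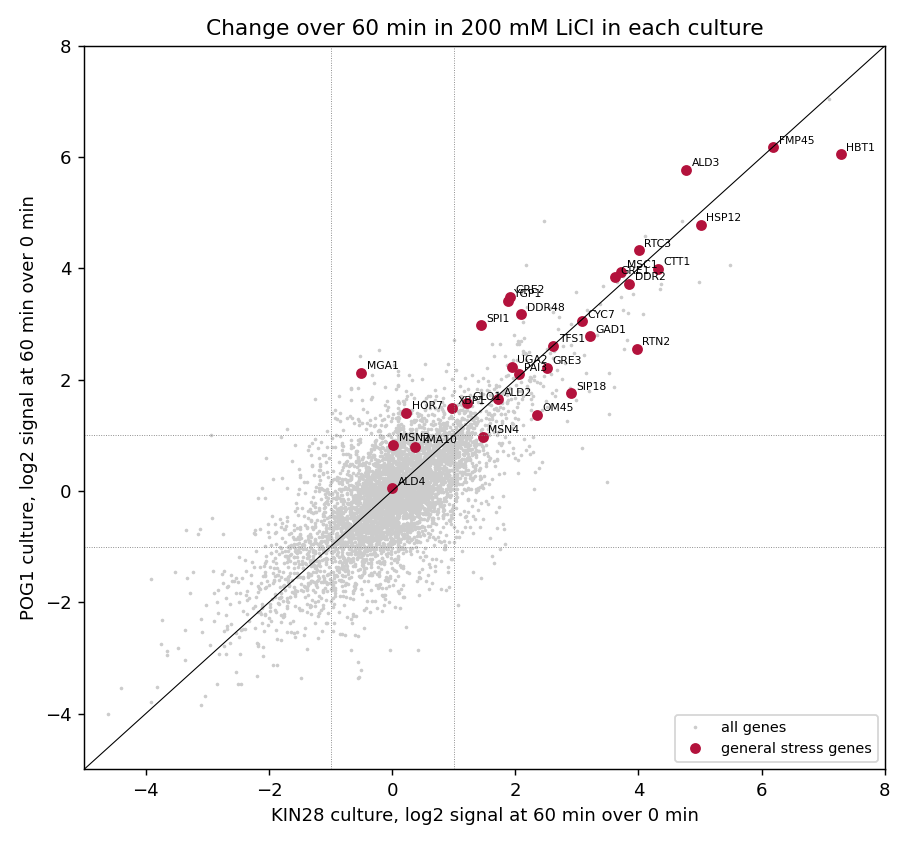
Log2 signal at 60 min over 0 min in the KIN28 culture (x axis) and in the POG1 culture (y axis), with all genes in grey, the 31 general stress genes in red, the diagonal of equal change and dotted lines at 2-fold. The red points run along the diagonal from ALD4 near 0 to FMP45 and HBT1 above 6 on both axes, and MGA1 at -0.50 and 2.13 lies farthest from it.

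The scale of the change depends on how the arrays were scaled, since the median signal of the arrays ranged from 41.8 to 60.6. Without scaling, 22.6% of all genes were at least 2-fold higher and 6.77% lower in the KIN28 culture, against 12.2% and 11.8% with scaling. In the POG1 culture 6.39% were higher and 25.2% lower, against 11.3% and 14.9%. The median change of all genes moved to 0.40 and -0.41. The counts of the general stress genes were then 26 and 27 of 31 higher and 0 lower in either culture.

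The next comparison asks whether the cultures differed in these genes. By the limma fit none of the 31 differed between the cultures over both times, with 1 (CTT1) at an unadjusted p under 0.05. Over all genes 0.0372% passed, which were KIN28 and POG1 themselves. URA3, a gene often carried on plasmids as a marker, was 8.56-fold lower in KIN28 cells at 0 min and 4.59-fold lower at 60 min, and its part in the comparison was not tested. Before lithium, 6 of the 28 genes above the floor in at least 1 culture differed at least 2-fold, against 7.56% of all genes tested, 3.58% higher in KIN28 cells and 3.98% lower. SPI1, YGP1, GRE2 and DDR48 were 2.96-fold, 2.93-fold, 2.37-fold and 2.11-fold higher in the KIN28 culture. RTN2 was 2.22-fold lower there and HBT1 at least 2.18-fold lower, both at or below the level of the negative controls in that culture. The POG1 signal of HBT1, 0.458, also lay below the negative controls of its array (0.568), so its difference at 0 min was not measured. With the floor at the negative controls or at the 40th percentile, 4 genes differed instead of 6. With a threshold of 3-fold none of the 31 differed.

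After 60 min in lithium, 2 of 31 genes differed at least 2-fold, against 10.7% of all genes, 6.93% higher in KIN28 cells and 3.77% lower. SIP18 was 2.22-fold higher in the KIN28 culture and MGA1 3.64-fold lower. Each of the 6 genes counted as differing at 0 min was closer at 60 min. For HBT1 the 0 min difference was not measured, and for RTN2 it rests on a KIN28 signal below the negative controls. At 60 min YGP1 was 1.01-fold, SPI1 1.02-fold and HBT1 1.09-fold the POG1 signal, RTN2 1.2-fold, DDR48 0.996-fold and GRE2 0.795-fold. A shrinking difference was also the rule among all genes that were at least 2-fold apart at 0 min, of which 359 of 399 were closer at 60 min. Of all 31 genes 18 were closer at 60 min, 58.1%, against 47.6% of all genes. GRE1, SIP18 and FMP45 lay at the floor in both cultures at 0 min, so they could hardly come out closer. The share of all genes covers such genes too. The median absolute log2 difference between cultures was 0.33 at 0 min over the 28 genes above the floor in at least 1 culture. At 60 min it was 0.26 over the 31 genes, so the values cover unlike sets. Over all genes tested it was 0.35 and 0.37.

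The responses of the cultures differed at least 2-fold for 9 of 31 genes, against 14.8% of all genes tested (6.21% with the larger value in POG1 cells, 8.6% with the smaller), and no test of this difference is possible with 4 arrays. The POG1 response was larger for MGA1 (6.21-fold), GRE2 (2.98-fold), YGP1 (2.91-fold), SPI1 (2.9-fold), HOR7 (2.26-fold) and DDR48 (2.12-fold). It was smaller for RTN2 (2.66-fold), HBT1 (2.37-fold) and SIP18 (2.23-fold), where HBT1 and SIP18 rest on the floor. The values of MGA1 and RTN2 rest on a 0 min signal below the negative controls, in POG1 cells and KIN28 cells respectively. With the floor at the 40th percentile the log2 responses of MGA1 were 0.01 in KIN28 cells and 0.98 in POG1 cells, under 2-fold apart. Of the 6 with the larger POG1 response, SPI1, YGP1, GRE2 and DDR48 were the genes with a higher 0 min signal in the KIN28 culture, and that 0 min array enters both values. Readings of 1 gene by different probe sets on the same arrays were also compared. Over 97 genes with 2 probe sets, the spread of 1 set was 0.53 (log2) in the KIN28 response and 11 pairs were over 2-fold apart. In the POG1 response, over 100 such genes, the spread was 0.56 and 14 pairs were over 2-fold apart. This spread holds differences between probe sets and none between repeated arrays, so it gives no scale for the differences of responses.

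**Figure D3:**
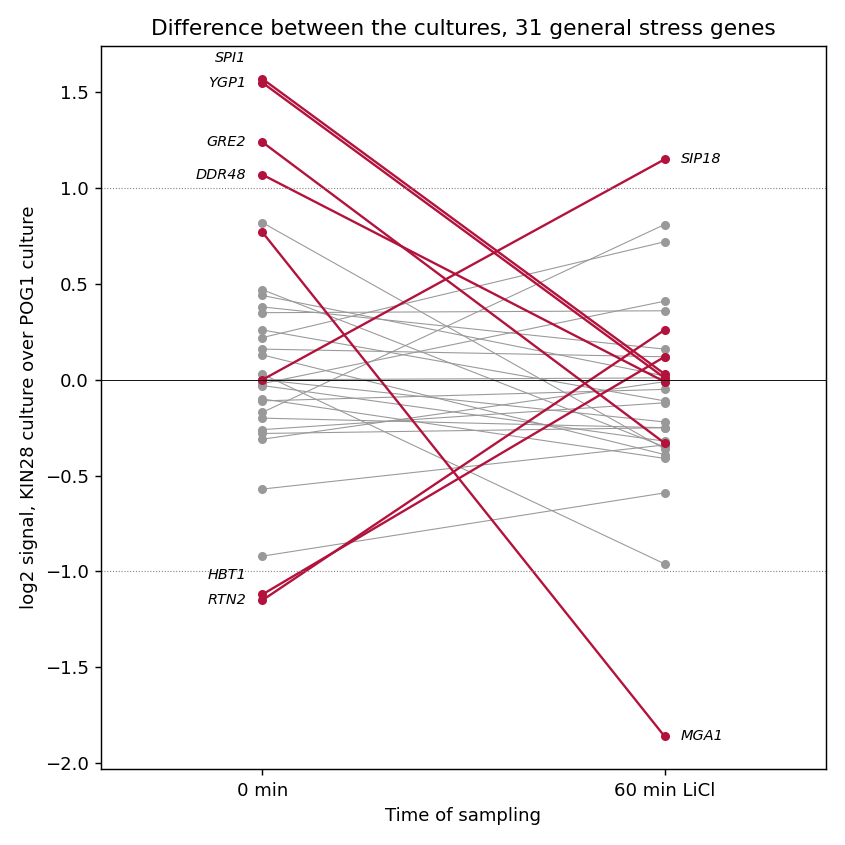
Log2 signal of the KIN28 culture over the POG1 culture for the 31 genes at 0 min and 60 min, each line 1 gene, with red lines for genes at least 2-fold apart (dotted lines) at either time. The lines of SPI1, YGP1, GRE2 and DDR48 start above 1 and end between -0.33 and 0.03, those of HBT1 and RTN2 start below -1 and end between 0.12 and 0.26, and MGA1 ends at -1.86.

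Several of the 31 genes have a paralog or a partner with the same function that is not counted among them, and 12 such genes were measured. Of these, 3 rose (CTA1, UGA1 and PEP4) and 1, CYC1, fell by the limma fit, where 7.62% of all genes rose and 9.42% fell. The paired values of the cytochrome c isoforms ran in opposite directions. CYC1, which encodes the major isoform in respiring cells, went from 8.97 to 1.55 in the KIN28 culture and from 10.2 to 1.08 in the POG1 culture, 5.78-fold and 9.49-fold lower (limma log2 change -2.89 ± 0.31, adjusted p = 0.00398), while CYC7 rose. For the reticulons, RTN1 gave 27.7 and 25 in KIN28 cells and 34.2 and 25.9 in POG1 cells (limma, adjusted p = 0.538), beside the rise of RTN2.

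CTA1, the peroxisomal catalase gene, gave 0.235 and 0.702 in the KIN28 culture and the floor and 0.735 in the POG1 culture, and rose (limma, adjusted p = 0.0109), though not with the floor at the negative controls (0.216). The aldehyde dehydrogenase genes ALD5 and ALD6 did not pass (adjusted p = 0.209 and 0.693), with ALD6 at 18.4 and 17.9 and at 13.7 and 10.9. The glyoxalase II genes GLO2 and GLO4 did not pass either (adjusted p = 0.287 and 0.739). SED1, STF2 and SUR7, which are related to SPI1, TMA10 and FMP45, gave limma log2 changes of 0.96, 1.07 and 0.92 with adjusted p = 0.0583, 0.0501 and 0.0634. With an intensity trend in the fit all 3 passed. They also passed with detection on every array and with the floor at the negative controls. Of 15 alternatives, SED1 stayed uncalled in 10, STF2 in 7 and SUR7 in 11. STF2 sat at the threshold, and the deposited ratio was enough for it to pass (limma, adjusted p = 0.0489). UGA1, the transaminase gene that acts before UGA2, rose 2.23-fold and 2.46-fold (limma, adjusted p = 0.029), and PEP4, which encodes the target of the PAI3 product, 2.2-fold and 2.44-fold (adjusted p = 0.0302). Without scaling both of these calls were lost (0.159 and 0.168).

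**Figure D4:**
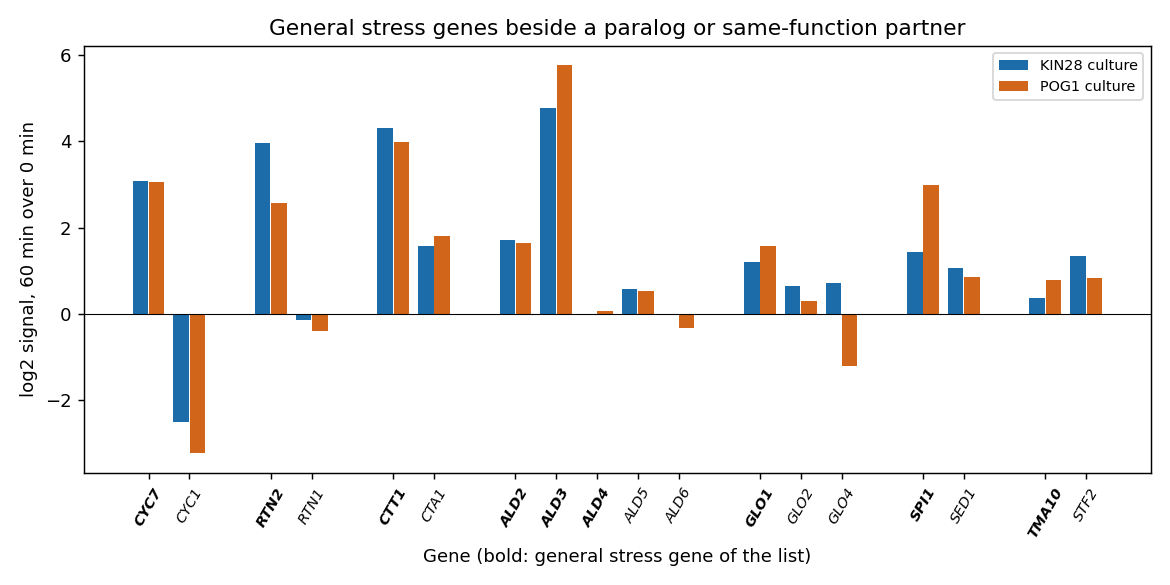
Log2 signal at 60 min over 0 min in the KIN28 culture (blue) and the POG1 culture (orange) for genes of the 31 (bold) beside paralogs or same-function partners; bars start at 0 and each rests on 2 arrays. CYC7 lies near 3 and CYC1 at -2.53 and -3.25, RTN2 lies above 2.5 with RTN1 at -0.15 and -0.40, and ALD3 lies above ALD2, with ALD4 at 0.00 and 0.05. GLO4 lies above 0 in KIN28 cells and below it in POG1 cells.

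Other stress genes known as targets of Msn2 and Msn4 were measured as well, mostly from the trehalose, glycogen, hexokinase, glycerol, pentose phosphate, chaperone and oxidant defence genes, with UBI4, PNC1 and ARA1. Of 30 such genes 22 rose and 0 fell by the limma fit, where 7.62% of all genes rose and 9.42% fell, and their median log2 change was 1.75 against -0.01. This list too was chosen with earlier results of these data known. Among those with the largest changes, the transaldolase paralog NQM1 had a log2 change of 7.08 ± 0.27 and the glycerol phosphatase gene GPP2 of 4.78 ± 0.27. TKL2, a transketolase gene, and SOL4, a gene of the oxidative pentose phosphate branch, had 4.35 and 3.63 (limma, adjusted p = 0.00153 and 0.00253). NQM1 and TKL2 lay at the floor at 0 min in 1 culture and in both, so the floor enters their tests.

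Genes that act on Msn2 and Msn4 or beside them in the stress response, mostly kinases, phosphatases and parts of the protein kinase A pathway, were mostly not called. Of 28, 4 rose and 0 fell, against the same 7.62% and 9.42% of all genes, and the median log2 change was 0.41. USV1, which encodes a zinc-finger protein of the stress response, went from 0.661 to 2.75 in the KIN28 culture and from 0.509 to 3.29 in the POG1 culture (limma, adjusted p = 0.00619). PDE1, a cyclic AMP phosphodiesterase gene, was 6.24-fold and 3.25-fold higher (adjusted p = 0.00914). YAK1, a kinase gene that opposes protein kinase A, was 2.37-fold and 3.57-fold higher (limma, adjusted p = 0.0186). With an intensity trend 7 of the 28 passed and without scaling 2.

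**Figure D5:**
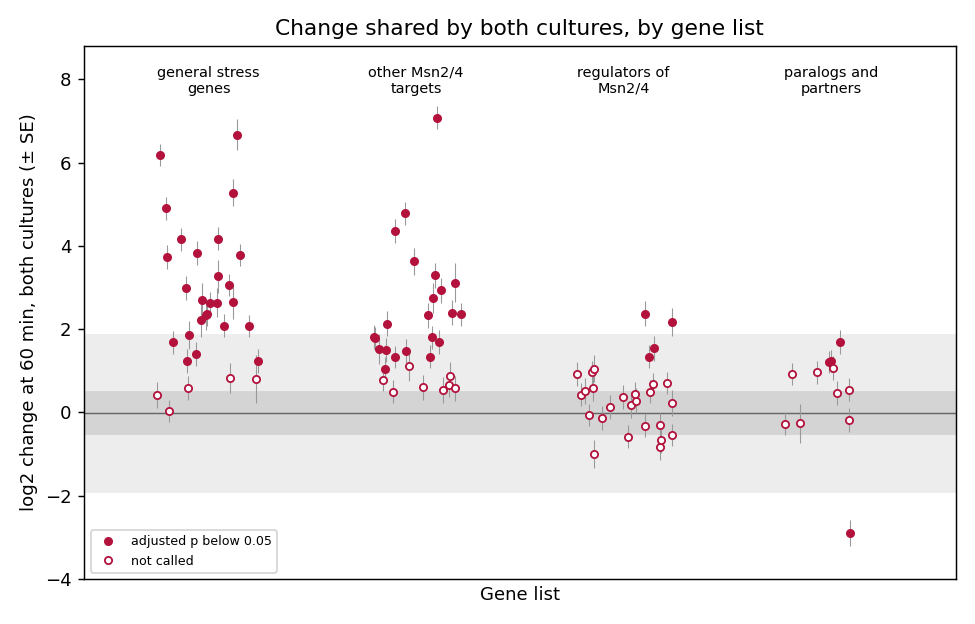
Log2 change at 60 min shared by both cultures (limma, ± SE, 4 arrays) for each gene of 4 lists; filled points passed at an adjusted p below 0.05, the dark and light grey bands hold the middle 50% and 95% of all genes and the line is their median. Of the points 26 of 31, 22 of 30, 4 of 28 and, with CYC1 below 0, 4 of 12 are filled.

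Some of the 31 genes are neighbours in the genome, by the gene order of the RefSeq R64 assembly; the files name no build. There were 4 adjacent pairs with 7 genes in all. HBT1 and FMP45 lie in tandem and both rose from signals below the negative controls. ALD3 and ALD2 also lie in tandem and had unlike folds. DDR48, PAI3 and SIP18 follow each other, DDR48 and PAI3 facing each other and PAI3 and SIP18 facing apart, with 4.29-fold, 4.17-fold and at least 7.53-fold higher signals in the KIN28 culture and 9.08-fold, 4.29-fold and at least 3.38-fold in the POG1 culture. GAD1 and HOR7 are separated by 1 gene.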

How the data were processed

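Per the file headers, the authors deposited the raw linear intensity of each probe set and a ratio, in which they divided it by 1 constant per array that equals the array median. The software that made the intensity is not given in the sources used here. The series-wide deposited table holds the same intensity to rounding. Intensities were divided by the array median, floored at the 20th percentile and taken to log2. Probe sets were named by the ORF in the files, matched to RefSeq protein-coding genes (5786 sets, and 33 by an older ORF name). Sets with several genes in the platform annotation were left out, and suffixed sets were used for the 96 genes with no other. The additive fit of culture and time used limma 3.58.1 in R 4.3.3 (lmFit, eBayes, Benjamini-Hochberg over 5381 genes above the floor on 1 array or more), called at an adjusted p below 0.05. Differences between 2 arrays carry no test and are called at 2-fold. The number of arrays limits the precision. The genes and lists were chosen with earlier results of these data known. Every member is named, every partner, and up to 4 genes per direction from the other lists, by the largest mean change in both responses. The additive fit was also run on simulated gene values with known changes. These did not pass through the scaling, floor and naming steps, so they do not test those steps. Promoter motifs were not analysed here. One gene of the regulator list is counted but not reported here by name.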

Additional observations from a re-analysis of the deposited data

Results flagged for a closer look

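MGA1 went in opposite directions in the cultures, with a log2 change of 2.13 in the POG1 culture and -0.50 in the KIN28 culture. With the floor at the 40th percentile these were 0.98 and 0.01, so the opposite direction was lost, and with hybridization control scaling the KIN28 value was -0.05. GLO4, a glyoxalase II gene, did so the other way round, with -1.23 in the POG1 culture, and 0.71 in the KIN28 culture. Both of its POG1 signals lay below the negative controls of their arrays. With the floor at the negative controls the POG1 value was -0.09, and with the floor at the 40th percentile 0.04, so its direction there was not measured. Neither difference was tested, since each rests on 1 array per culture and time.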

How the results depend on the processing

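Of 26 genes of the 31 that rose, 20 kept the call under each alternative that tested them, other than the removal of the floor. ALD2, DDR48, GLO1, MSN4, SIP18 and XBP1 lost it under 1 or more. Without the floor the fit called 0 of the 31 genes, 0 of the other targets, 0 of the regulators, 0 of the partners, and 0 genes higher and 0 lower in all; that alternative lets signals near 0 into the log scale. Without scaling it called 202 genes higher and 246 lower, 2 regulators and 2 partners, and with the bacterial hybridization controls, an alternative added after the data were seen, 187, 183, 2 and 2. An intensity trend gave 7 regulators and 7 partners, and detection on every array 7 regulators. Among the 31 genes HOR7 gained a call with the intensity trend and XBP1 lost its own. The median log2 change of the 31 genes in the KIN28 culture was 2.25 with 75th percentile scaling, 2.06 with detection on every array, 2.10 with a floor at the 40th percentile or at the negative controls (the latter also added later), 2.73 without scaling and 2.80 with hybridization controls. In the POG1 culture it was 2.27 and 2.28 under these last settings. Of genes differing between cultures at 60 min there were 1 with a floor at the 40th percentile, 7 with hybridization controls, 6 at 1.5-fold and 1 at 3-fold. At 3-fold there were 0 at 0 min and 1 in the difference of responses. Names from the platform table, added later, changed the DDR48 call. The causes were not tested. The fit already sets the times against each other within each culture, and no further replicate block could be fitted, since the labels give no replicate numbers. With 1 array left out the fit has no residual degree of freedom. The promoter motif alternatives were not run, for lack of sequence here. Signals near the floor limit the folds of GRE1, SIP18, HBT1, FMP45 and XBP1.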
